A study of Homo sapiens with 27 samples.

Results

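The 8 mRNAs examined were ATF4, ATF5, DDIT3, PPP1R15A, PPP1R15B, IFRD1, IBTK and TRIB3, chosen by name as regulators of the integrated stress response (ISR) described with short upstream open reading frames (uORFs). They were 8 of the 60534 gene IDs that the 2 gene lists of the series have in common. The study used IMR90, a line of normal human lung fibroblasts labelled wild type, grown in serum-containing medium. RNA-seq, which measures mRNA, and Ribo-seq, which sequences the mRNA fragments protected by ribosomes, were made from the same kind of lysate in 5 states. Cycling cells were untreated, subconfluent cultures (2 RNA-seq and 3 Ribo-seq libraries). Quiescent cells were arrested by contact inhibition, IR cells were made senescent with 15 Gy of ionizing radiation and collected after 10 days, and Etoposide cells were made senescent by 3 treatments with 50 uM of this topoisomerase II inhibitor over 10 days (3 RNA-seq and 3 Ribo-seq libraries each). The last group, Tg, was cycling cells given 25 nM thapsigargin, an inhibitor of the pump that fills the endoplasmic reticulum with calcium, for 3 h (2 RNA-seq and 2 Ribo-seq libraries). The labels do not say whether replicates were separate cultures, so the p-values measure the spread between these libraries, which may be technical. All groups come from 1 cell line, and in bulk samples fewer expressing cells and less RNA per cell cannot be told apart.

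In the ISR, stress-sensing kinases phosphorylate the initiation factor eIF2, which lowers initiation on most mRNAs. A small set of mRNAs with uORFs escapes or gains from this, because scanning ribosomes then pass uORFs that would otherwise capture them. ATF4 is the textbook case, and the transcription factor it encodes induces further members, DDIT3, PPP1R15A and TRIB3 among them. PPP1R15A and PPP1R15B direct a phosphatase to eIF2 and so end or restrain the response. Thapsigargin is a standard trigger, acting through unfolded protein in the endoplasmic reticulum and the kinase PERK.

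Gene counts ran from 20635503 to 57119841 per RNA-seq library and from 1936976 to 19996104 per Ribo-seq library, with the 2 Tg Ribo-seq libraries lowest at 1936976 and 2044900. Levels are given as CPM, the share of a library's counts scaled to 1000000, after TMM scaling, and a change as a log2 fold change ± SE. All 11 fibroblast markers exceeded 1 CPM in every RNA-seq library, while endothelial and immune marker sums stayed at or below 2.62 CPM. The epithelial marker sum ran from 2.52 to 97.1 CPM, nearly all of it KRT19, and its part in the results was not tested. The Tg RNA-seq libraries had 1.35 and 1.40% unmapped reads against 27.8 to 40.6% in the other RNA-seq libraries. Multimapping reads made up 65.2 and 66.9% of the Tg Ribo-seq libraries against 19.8 to 31.9% in the other Ribo-seq libraries. The Tg libraries thus stood apart as a set, and treatment and library preparation cannot be told apart for them. The cycling Ribo-seq libraries were counted with another gene list than the Tg Ribo-seq libraries.

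All 8 genes passed the RNA-seq filter on low counts and 7 passed in Ribo-seq. IFRD1 was the exception, with 0 to 20 counts per Ribo-seq library, so it has no Ribo-seq or translational efficiency test. ATF4 (ENSG00000128272, chr22:39520559-39522686 in GRCh38.p14), PPP1R15A (ENSG00000087074, chr19:48872421-48876058), PPP1R15B (ENSG00000158615, chr1:204395826-204411817) and TRIB3 (ENSG00000101255, chr20:380760-397559) overlap no other annotated gene. ATF5 (ENSG00000169136, chr19:49928906-49933935) overlaps IL4I1, NUP62 and MIR4751, and up to 29.6% of its Ribo-seq reads and 23.4% of its RNA-seq reads lay on the other strand. DDIT3 (ENSG00000175197, chr12:57516588-57520517) overlaps MARS1, LOC128125814 and MIR616, with at most 16.7% of RNA-seq and 4.55% of Ribo-seq reads on the other strand. IBTK (ENSG00000005700, chr6:82169987-82247744) overlaps RNU6-130P, and IFRD1 (ENSG00000006652, chr7:112423174-112477203) overlaps LOC105375457 and LOC128031837. Counts cover whole genes, so a footprint on a uORF is not separated here from one on the main coding sequence.

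Of the 6 members whose mRNA rose under Tg, 3 have a match to 1 of 3 searched motifs in the 250 bases before the first listed RefSeq start site, and these windows are shown for that reason. The motif is in capitals and each window reads 5′ to 3′ on the gene's strand (RefSeq, GRCh38.p14). They lie at chr12:57520515-57520764 on the minus strand for DDIT3, chr19:48872171-48872420 on the plus strand for PPP1R15A and chr7:112450258-112450507 on the plus strand for IFRD1.
DDIT3: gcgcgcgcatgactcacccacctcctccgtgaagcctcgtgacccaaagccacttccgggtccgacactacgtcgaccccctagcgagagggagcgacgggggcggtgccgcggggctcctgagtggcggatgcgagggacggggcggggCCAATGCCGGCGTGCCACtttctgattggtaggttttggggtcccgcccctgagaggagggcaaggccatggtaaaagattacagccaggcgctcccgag
PPP1R15A: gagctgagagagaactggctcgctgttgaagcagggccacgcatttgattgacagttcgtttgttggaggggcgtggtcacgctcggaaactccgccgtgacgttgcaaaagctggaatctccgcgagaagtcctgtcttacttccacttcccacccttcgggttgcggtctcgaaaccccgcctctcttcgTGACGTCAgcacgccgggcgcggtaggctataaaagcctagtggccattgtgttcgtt
IFRD1: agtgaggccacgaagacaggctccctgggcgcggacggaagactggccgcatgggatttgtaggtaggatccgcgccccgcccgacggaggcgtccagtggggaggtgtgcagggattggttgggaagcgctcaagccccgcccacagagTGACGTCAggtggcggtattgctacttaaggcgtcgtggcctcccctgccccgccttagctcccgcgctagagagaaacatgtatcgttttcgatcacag
The DDIT3 capitals match the ER stress element core, CCAAT followed after 9 bases of any kind by CCAC, and begin 100 bases before the start. This pattern, searched on both strands, was found in 99 of 35116 windows of the same length (0.282%). The capitals of PPP1R15A and IFRD1 are the cyclic AMP response element TGACGTCA, which begins 58 and 100 bases before the start and occurs in 578 windows (1.65%). The ER stress element core and TGACGTCA were added to the search after the promoter sequences were seen. The shares over all windows therefore do not test these matches. The core TGATGNAA, bound by C/EBP and ATF dimers and present in 1104 windows (3.14%), matched only PPP1R15B among the 8 genes, 227 bases before its start as TGATGCAA. No window of ATF4, ATF5, IBTK or TRIB3 matched any of the 3 patterns, which says only that these letters are not in those windows.

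Under thapsigargin, 6 of 8 members rose in RNA-seq and 6 of the 7 tested rose in Ribo-seq, and none fell. The RNA-seq count includes IBTK and IFRD1, whose changes fell to 0.22 and 0.74 without Tg replicate 1. IBTK mRNA also did not pass with only the cycling and Tg libraries fitted. For comparison, 24.5% of all genes tested in RNA-seq passed in either direction and 11.7% rose, and in Ribo-seq 44.6% passed and 21.1% rose. Translational efficiency, the Ribo-seq change minus the RNA-seq change in a joint fit of both assays, rose for 3 of 7: ATF4, DDIT3 and PPP1R15A. Over all genes 20.7% passed in efficiency, 7.87% higher and 12.9% lower, a split of 922 to 1508 genes. With edgeR it became 1145 to 1285 under RLE scaling and 1109 to 1329 under TMM within each assay. DESeq2 gave 1397 to 1514. The median efficiency change of all genes was -0.15 in the main fit, -0.08 with RLE scaling and -0.09 with TMM within each assay. PPP1R15B, TRIB3, IBTK and ATF5 did not pass in efficiency. In simulated data this test recovered 26.0% of genes raised 2-fold, so an efficiency change that did not pass may be one it missed. The plot of changes under thapsigargin sets the 3 quantities side by side.

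**Figure D1:**
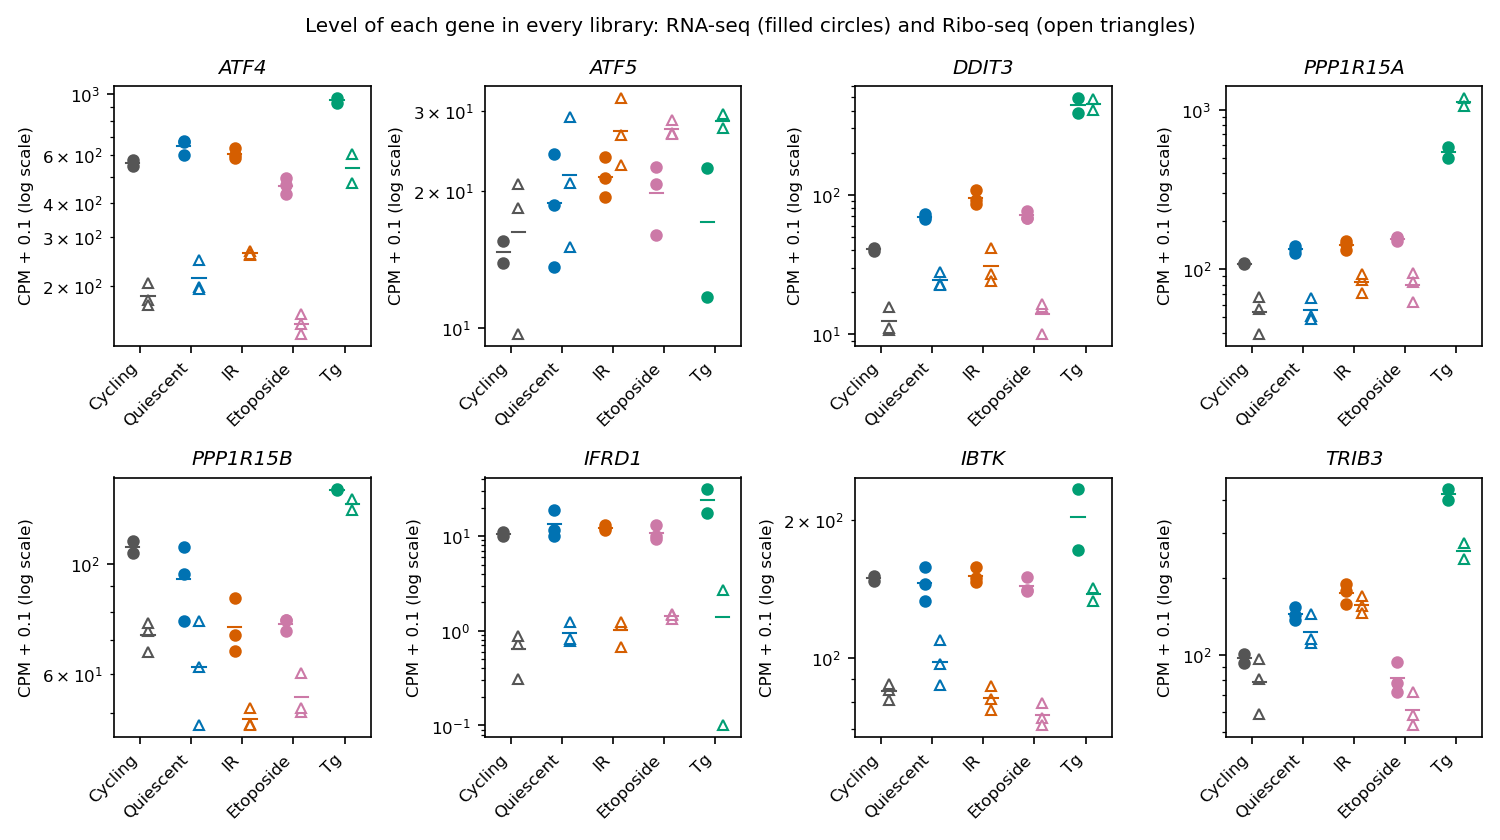
Level of each gene in every library on a log scale (CPM + 0.1), by state, with filled circles for RNA-seq, open triangles for Ribo-seq and bars for group means. The Tg Ribo-seq libraries of DDIT3 (403 and 488 CPM) and PPP1R15A (1188 and 1057 CPM) reach the level of their RNA-seq libraries or pass it, while in every other state the Ribo-seq points of these genes lie below the RNA-seq points.

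ATF4, the transcription factor that drives the ISR programme, had 577 and 549 CPM in the cycling RNA-seq libraries and 972 and 929.6 CPM under Tg. Its footprints were 177, 170.3 and 204 CPM in cycling cells and 473 and 606 CPM under Tg. Every Tg library was above every cycling library in both assays. The RNA-seq change was 0.76 ± 0.12 and the Ribo-seq change 1.55 ± 0.13 (edgeR adjusted p = 1.65e-06), so footprints rose 2.94-fold where mRNA rose 1.69-fold. The efficiency change was 0.75 ± 0.18 (95% interval 0.37 to 1.12, edgeR adjusted p = 0.00572). This call was lost, at 0.72 with an adjusted p of 0.0614 in edgeR, when only the cycling and Tg libraries were fitted.

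DDIT3 encodes CHOP, a transcription factor of the C/EBP family that promotes death in prolonged stress. It had 41.5 and 39.6 CPM in cycling RNA-seq and 496 and 383 CPM under Tg. In Ribo-seq it had 10.6, 11.0 and 15.6 CPM in cycling cells and 403 and 488 CPM under Tg. No Tg value came near a cycling value. Footprints were 36.1-fold and mRNA 10.8-fold higher, and DDIT3 ranked 8 of 11766 genes by Ribo-seq change and 66 of 13293 by RNA-seq change. Efficiency rose by 1.69 ± 0.30 (95% interval 1.06 to 2.31, edgeR adjusted p = 0.000469).

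ATF5, a relative of ATF4 whose mRNA carries a similar pair of uORFs, did not pass in either assay. Its RNA-seq levels were 13.8 and 15.4 CPM in cycling cells and 11.6 and 22.4 CPM under Tg, which overlap. Its footprints were 20.6, 9.61 and 18.2 CPM in cycling cells and 27.4 and 29.4 CPM under Tg, with the Tg pair above all cycling libraries. The Ribo-seq change was 0.83 ± 0.33 (edgeR adjusted p = 0.0585). DESeq2 gave 0.80 with an adjusted p of 0.0448, and without cycling replicate 1 edgeR also called it higher. The efficiency interval ran from -0.41 to 1.52 and includes the change seen for ATF4.

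PPP1R15A encodes GADD34, the inducible eIF2 phosphatase subunit. Its RNA-seq levels were 109 and 107 CPM in cycling cells and 500.5 and 582 CPM under Tg. Its footprints went from 56.1, 39.1 and 66.5 CPM to 1188 and 1057 CPM, the groups being far apart. That is a 20.9-fold rise in footprints (rank 16 of 11766 genes) over a 5.02-fold rise in mRNA. The efficiency change of 2.01 ± 0.26 (95% interval 1.47 to 2.54, edgeR adjusted p = 1.33e-05) had rank 149 of 11715 genes.

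PPP1R15B encodes CReP, the constitutive counterpart of GADD34. Footprints were 73.2, 66.3 and 75.7 CPM in cycling cells and 135 and 128 CPM under Tg, with no overlap. They rose by 0.87 ± 0.17 (edgeR adjusted p = 0.00103). The mRNA had 105 and 111 CPM in cycling cells and 141 and 140.3 CPM under Tg, a change of 0.38 ± 0.16 that did not pass (edgeR adjusted p = 0.0896). The efficiency change of 0.44 ± 0.22 did not pass either, and its 95% interval from -0.01 to 0.89 lies below that of PPP1R15A.

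TRIB3 encodes a pseudokinase that ATF4 and CHOP induce and that binds ATF4. Its mRNA had 101 and 93.4 CPM in cycling cells and 442 and 402 CPM under Tg. Its footprints were 96.6, 59.1 and 80.4 CPM in cycling cells and 272 and 237 CPM under Tg. Both assays separated the groups, and here mRNA (4.33-fold, edgeR adjusted p = 9.00e-07) changed more than footprints (3.23-fold, edgeR adjusted p = 1.44e-05). The efficiency change was -0.47 ± 0.24, with a 95% interval from -0.98 to 0.03 that stays below those of DDIT3, ATF4 and PPP1R15A.

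For IBTK, an adaptor of a ubiquitin ligase, footprints were 84.7, 87.5 and 80.6 CPM in cycling cells and 133 and 142 CPM under Tg, a rise of 0.71 ± 0.12 (edgeR adjusted p = 0.000309). Its mRNA went from 147 and 151 CPM to 233 and 172 CPM, with the first Tg library well above the other. IFRD1, a transcriptional coregulator, had 11.0 and 9.96 CPM in cycling RNA-seq and 31.1 and 17.4 CPM under Tg, with the same Tg library high. The mRNA changes were 0.44 ± 0.14 for IBTK (edgeR adjusted p = 0.0348) and 1.21 ± 0.31 for IFRD1 (edgeR adjusted p = 0.0121). Either call was lost without cycling replicate 1, cycling replicate 2 or Tg replicate 1, with values down to 0.22 for IBTK and 0.74 for IFRD1, and the IBTK call also with only the cycling and Tg libraries fitted (edgeR adjusted p = 0.151). In Ribo-seq IFRD1 had 0 and 5 counts in the Tg libraries. The 0 allows a level of up to 1.64 CPM (3 counts, counting error only), and no change in its footprints could be tested. The quiescent Ribo-seq libraries, with 17508672 to 19996104 gene counts, also held only 14 to 20 IFRD1 counts, and whether the counting lost reads of this gene was not tested.

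**Figure D2:**
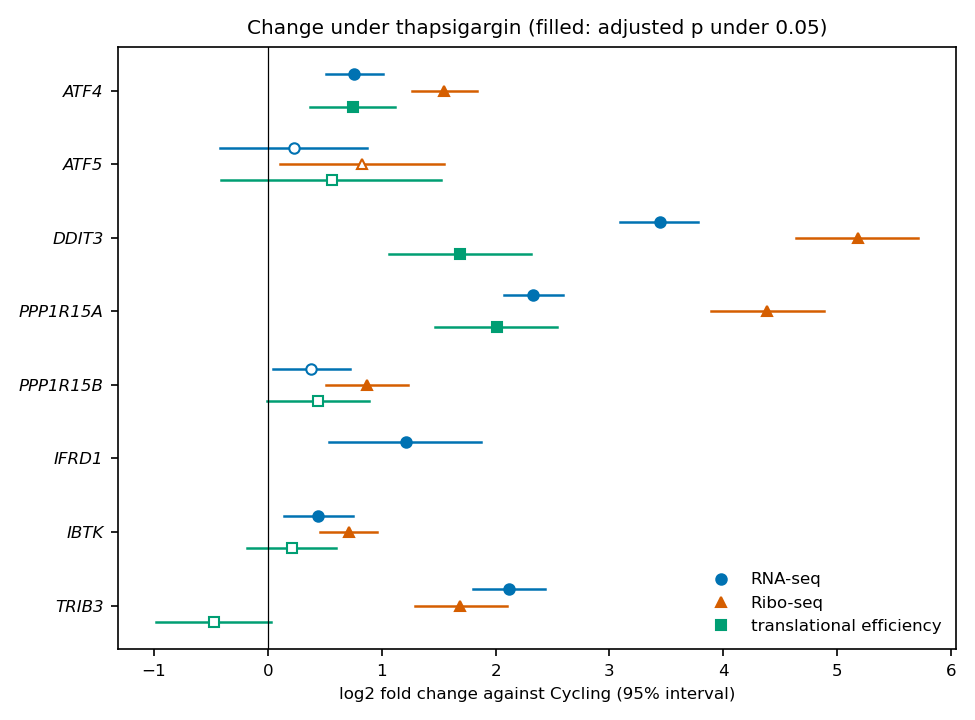
Change under thapsigargin against cycling cells as log2 fold change with 95% intervals, for RNA-seq (circles), Ribo-seq (triangles) and translational efficiency (squares), filled where the edgeR adjusted p is under 0.05. Efficiency is filled for ATF4 (0.75), DDIT3 (1.69) and PPP1R15A (2.01), and TRIB3 is the one gene with its efficiency point left of 0 (-0.47).

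Fewer of these genes passed in the arrested states than under Tg, and with edgeR no member passed in translational efficiency in any of them. The comparisons with cycling cells share the cycling libraries. In quiescence 2 of 8 members rose in RNA-seq, DDIT3 and TRIB3 (15.6% of all genes passed, 5.18% higher), and the same pair of 7 in Ribo-seq (22.4%, 8.15% higher). After IR 4 of 8 passed in RNA-seq (34.9%) and 5 of 7 in Ribo-seq (40.5%). After etoposide 3 of 8 passed in RNA-seq (34.6%) and 4 of 7 in Ribo-seq (33.9%). These shares are for either direction over all genes tested, and with 7 or 8 members a difference of 1 gene moves the members' share by more than 10 points.

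DDIT3 mRNA, at 41.5 and 39.6 CPM in cycling cells, was 72.2, 66.5 and 69.4 CPM in quiescence, 85.8, 108 and 92.0 CPM after IR, and 68.5, 68.3 and 77.0 CPM after etoposide. All arrested libraries lay above the cycling ones, and IR lay above the others. Its footprints, at 10.6, 11.0 and 15.6 CPM in cycling cells, were 27.7, 22.7 and 22.3 CPM in quiescence, 27.1, 23.9 and 41.4 CPM after IR, and 9.94, 15.5 and 16.4 CPM after etoposide. Etoposide therefore overlapped cycling cells in footprints although its mRNA did not. The mRNA change was 0.81 ± 0.14 after etoposide (edgeR adjusted p = 0.000487) and 1.23 ± 0.14 after IR (edgeR adjusted p = 1.86e-05). The footprint change was 0.18 ± 0.23 after etoposide (95% interval -0.32 to 0.69) and 1.33 ± 0.23 after IR (edgeR adjusted p = 0.000485). The efficiency change after etoposide, -0.68 ± 0.29, did not pass (edgeR adjusted p = 1.00).

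TRIB3 mRNA was 101 and 93.4 CPM in cycling cells, 143, 154 and 137 CPM in quiescence, 158, 189.7 and 177 CPM after IR, and 71.8, 78.0 and 93.6 CPM after etoposide. Quiescent and IR libraries were above the cycling pair, and etoposide overlapped it from below. Footprints had the same order, at 96.6, 59.1 and 80.4 CPM in cycling cells, 111, 115 and 144 CPM in quiescence, 155, 146 and 169 CPM after IR, and 58.2, 53.1 and 71.5 CPM after etoposide. TRIB3 rose after IR by 0.85 ± 0.13 in RNA-seq (edgeR adjusted p = 0.000269) and by 1.00 ± 0.17 in Ribo-seq (edgeR adjusted p = 0.000425). In quiescence it rose by 0.57 ± 0.13 in RNA-seq (edgeR adjusted p = 0.0102), a call lost without either cycling library (adjusted p up to 0.102). The quiescent Ribo-seq rise of 0.65 ± 0.17 (edgeR adjusted p = 0.0130) was lost without cycling replicate 2, at 0.48 with an adjusted p of 0.0516, and with only the quiescent and cycling libraries fitted (adjusted p = 0.0584).

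With edgeR, ATF4 mRNA did not pass against cycling cells in any arrested state, and its footprints rose after IR and fell after etoposide. The mRNA had 674, 598 and 672 CPM in quiescence, 601, 637 and 586 CPM after IR and 496, 431 and 465 CPM after etoposide, against 577 and 549 CPM in cycling cells. Footprints had 198, 194 and 248 CPM in quiescence, 267, 258 and 261 CPM after IR and 133, 145 and 157 CPM after etoposide. In footprints the order was etoposide, cycling, quiescent, IR and Tg, and the cycling and quiescent ranges were the one overlapping pair of neighbours. After IR the footprint change was 0.51 ± 0.12 (edgeR adjusted p = 0.00427). After etoposide it was -0.34 ± 0.12 (edgeR adjusted p = 0.0426), a call lost with RLE scaling and without cycling replicate 1, cycling replicate 3, etoposide replicate 1 or etoposide replicate 2 (adjusted p up to 0.166). The etoposide mRNA change of -0.28 missed the threshold with edgeR (adjusted p = 0.0542) and passed with DESeq2 (adjusted p = 0.0343). The efficiency change was 0.49 ± 0.16 after IR (edgeR adjusted p = 0.481) and -0.12 ± 0.17 after etoposide, and neither passed.

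The 2 eIF2 phosphatase subunits went opposite ways in senescent cells. In quiescence PPP1R15A mRNA was 140.1, 133 and 126 CPM, all above the cycling pair, a change of 0.30 ± 0.11 that missed the threshold with edgeR (adjusted p = 0.0729) and passed with DESeq2 (adjusted p = 0.0337). PPP1R15A mRNA was 109 and 107 CPM in cycling cells, 144, 149 and 132 CPM after IR and 158, 156 and 151 CPM after etoposide, with all senescent libraries higher. It rose by 0.39 ± 0.11 after IR (edgeR adjusted p = 0.0115) and by 0.52 ± 0.11 after etoposide (edgeR adjusted p = 0.00205). The IR call was lost without either cycling library. Its footprints, at 70.8, 85.1 and 93.0 CPM after IR and 95.0, 82.9 and 62.0 CPM after etoposide, rose by 0.62 ± 0.20 and 0.57 ± 0.20 over 56.1, 39.1 and 66.5 CPM in cycling cells, and etoposide overlapped cycling. The edgeR adjusted p was 0.0242 after IR and 0.0384 after etoposide, and each was lost without cycling replicate 1 or 2 and without a filter on low counts (adjusted p = 0.0527 and 0.0577). Leaving out IR replicate 2 or 3, or etoposide replicate 1 or 2, also ended the respective call.

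PPP1R15B mRNA was 105 and 111 CPM in cycling cells, 71.7, 66.6 and 85.2 CPM after IR and 76.7, 73.2 and 76.7 CPM after etoposide. Its footprints were 47.5, 47.1 and 51.0 CPM after IR and 50.2, 51.1 and 60.1 CPM after etoposide, against 73.2, 66.3 and 75.7 CPM in cycling cells. Every senescent library was below every cycling library in both assays. The mRNA fell by 0.53 after IR (SE 0.14, edgeR adjusted p = 0.0101) and by 0.51 after etoposide (SE 0.14, edgeR adjusted p = 0.0128). Footprints fell by 0.56 after IR (SE 0.15, edgeR adjusted p = 0.00966) and by 0.41 after etoposide (SE 0.15, edgeR adjusted p = 0.0456). Without cycling RNA-seq replicate 2 both mRNA calls were lost, as was the etoposide mRNA call without cycling replicate 1. The etoposide footprint call was lost with RLE scaling, without any 1 cycling library and without etoposide replicate 1 or 2. In quiescence PPP1R15B spread widely, from 76.4 to 108 CPM in RNA-seq and from 47.2 to 76.5 CPM in Ribo-seq, and overlapped cycling cells.

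Of the tests of ATF5, IBTK and IFRD1 against cycling cells in the arrested states, 1 passed with edgeR, that of ATF5 footprints after etoposide. ATF5 footprints were 26.7, 26.6 and 28.5 CPM after etoposide, above the 20.6, 9.61 and 18.2 CPM of cycling cells (0.77 ± 0.27, edgeR adjusted p = 0.0440). With both strands counted the change was 0.45 (edgeR adjusted p = 0.435), and leaving out cycling replicate 2 or 3 or any etoposide library ended the call. After IR the ATF5 footprint change of 0.74 ± 0.28 missed the threshold (edgeR adjusted p = 0.0504), and with DESeq2 it passed (adjusted p = 0.0255). IBTK changes against cycling cells lay between -0.17 and 0.21 in both assays and none passed. IFRD1 mRNA lay between 9.25 and 18.7 CPM in all arrested libraries against 9.96 and 11.0 CPM in cycling cells, and none of its 3 changes passed.

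**Figure D3:**
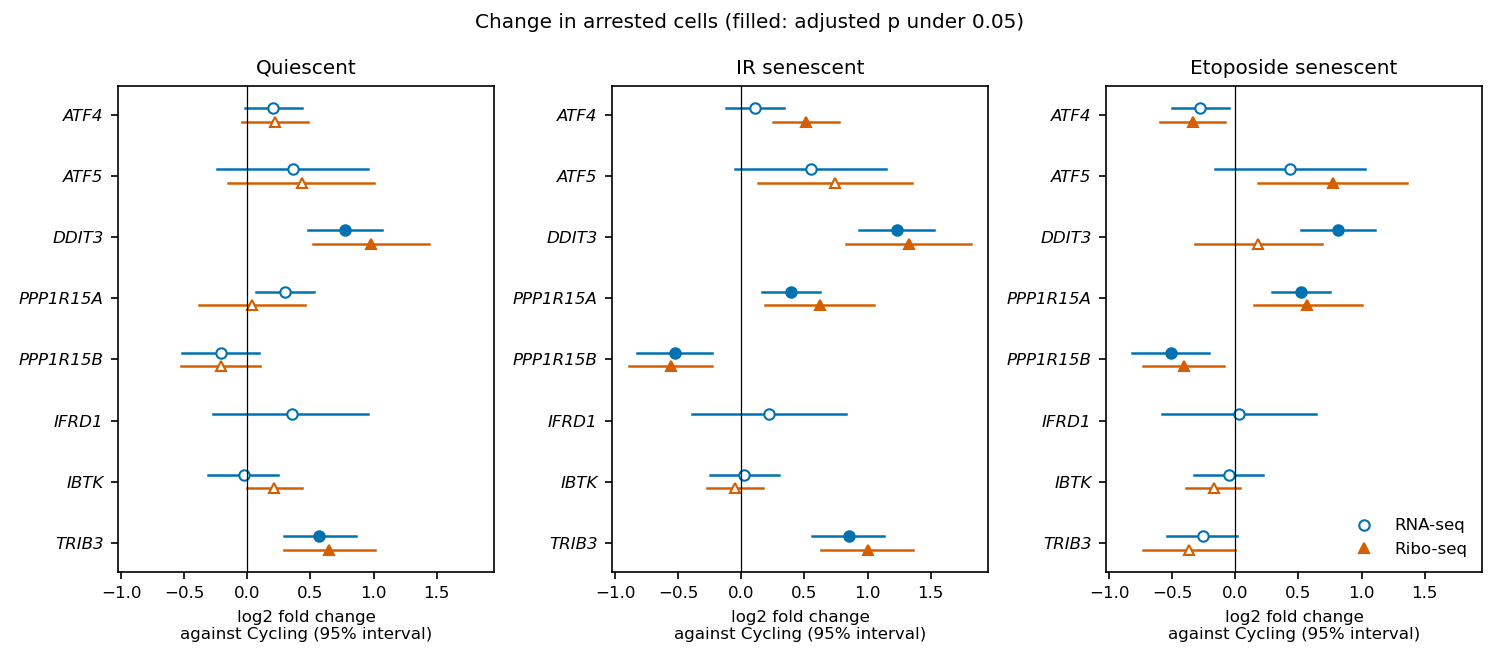
Change of each gene in quiescent, IR and etoposide cells against cycling cells, as log2 fold change with 95% intervals, for RNA-seq (circles) and Ribo-seq (triangles), filled where the edgeR adjusted p is under 0.05. DDIT3 in etoposide cells has a filled RNA-seq point at 0.81 and an open Ribo-seq point at 0.18, and PPP1R15B lies left of 0 in both senescent panels.

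Of the 2 kinds of senescence, IR had the higher ATF4, DDIT3 and TRIB3 levels in both assays. In RNA-seq 3 of 8 members were higher after IR and none lower (22.6% of all genes passed, 9.67% higher), and in Ribo-seq the same 3 of 7 (22.5%, 8.82% higher). ATF4 differed by 0.39 ± 0.09 in RNA-seq (edgeR adjusted p = 0.00946) and by 0.85 ± 0.12 in Ribo-seq (edgeR adjusted p = 0.000599). DDIT3 differed by 0.42 ± 0.12 in RNA-seq (edgeR adjusted p = 0.0212) and by 1.14 ± 0.24 in Ribo-seq (edgeR adjusted p = 0.00382). TRIB3 differed by 1.11 ± 0.12 in RNA-seq (edgeR adjusted p = 7.60e-05) and by 1.36 ± 0.17 in Ribo-seq (edgeR adjusted p = 0.000283), and it ranked 84 of 11766 genes by Ribo-seq difference. All IR libraries were above all etoposide libraries for each of the 3 in both assays. The ATF4 mRNA call was lost without IR replicate 2 or etoposide replicate 2, and the DDIT3 mRNA call also without etoposide replicate 1 (adjusted p up to 0.116).

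In each of these 3 genes the footprint difference exceeded the mRNA difference. The efficiency difference in the joint fit was 0.60 ± 0.16 for ATF4, 0.86 ± 0.28 for DDIT3 and 0.40 ± 0.21 for TRIB3. That fit scaled both assays together, so its values need not equal the footprint difference minus the mRNA difference. Its median over all genes was 0.09, against -0.04 with TMM scaling within each assay. None of the 3 efficiency differences passed with edgeR (adjusted p = 0.532, 0.573 and 0.769). In that test 0 of 11715 genes passed (0.00%), and DESeq2 called 6 genes, none of them a member. An unadjusted p under 0.05 was found for 770 genes, ATF4 and DDIT3 among them. If no gene changed, a share of 0.05 of the genes tested would be expected there. Fitted on the IR and etoposide libraries alone, edgeR called 606 genes, 590 of them lower, with ATF4 the 1 member called, higher by 0.43 (adjusted p = 0.0482). PPP1R15A, PPP1R15B, ATF5, IBTK and IFRD1 did not pass between IR and etoposide in any quantity tested. Their differences ran from -0.15 to 0.20 in the 2 assays.

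Against quiescent cells, the mean of the 2 senescent states had lower mRNA for ATF4 (-0.29 ± 0.08, edgeR adjusted p = 0.0144), PPP1R15B (-0.31 ± 0.11, edgeR adjusted p = 0.0410) and TRIB3 (-0.28 ± 0.10, edgeR adjusted p = 0.0410). These were 3 of 8 members, where 34.2% of all genes passed and 17.6% were lower. In Ribo-seq PPP1R15A was higher (0.56 ± 0.17, edgeR adjusted p = 0.0288) and IBTK lower (-0.32 ± 0.09, edgeR adjusted p = 0.0135), 2 of 7 members beside 26.1% of all genes. The mean can join states on either side of quiescence. TRIB3 mRNA averaged 145 CPM in quiescence, 175 CPM after IR and 81.1 CPM after etoposide, so it stood below quiescence after etoposide and above it after IR. In footprints ATF4, DDIT3 and TRIB3 likewise had the quiescent mean between those of etoposide and IR. ATF4 mRNA lost its call without quiescent replicate 1 and IBTK without quiescent replicate 2. The PPP1R15B call was lost in 7 and the TRIB3 call in 6 of the 9 fits that left out 1 library each, and both with only those states fitted. The PPP1R15A call was lost without quiescent replicate 1 or 2, IR replicate 2 or 3, or etoposide replicate 1.

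Translational efficiency can also be read as a level, the log2 ratio of footprint to mRNA CPM in a state. ATF4 stood at -1.58 ± 0.12 in cycling cells (percentile 9.71 of 11715 genes) and at -0.83 ± 0.14 under Tg (percentile 34.1). DDIT3 stood at -1.68 ± 0.21 (percentile 8.42) and reached 0.01 ± 0.22 under Tg (percentile 57.8). PPP1R15A went from -0.97 ± 0.17 (percentile 20.1) to 1.04 ± 0.19 (percentile 86.3). These 3 genes thus had low ratios of footprints to mRNA in cycling cells, and under Tg only PPP1R15A ranked high. Both counts cover whole genes, so this ranking is not one of ribosome density on coding sequences. The lowest level of any member was DDIT3 after etoposide, at -2.36 ± 0.20 (percentile 3.72). In cycling cells IBTK (-0.78 ± 0.12, percentile 25.3) stood close to PPP1R15A. PPP1R15B (-0.55 ± 0.14, percentile 32.1) and TRIB3 (-0.27 ± 0.16, percentile 41.9) lay nearer the middle, and ATF5 at 0.17 ± 0.30 (percentile 59.0) above it.

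In the arrested states no efficiency level of the 7 members passed against the cycling level, although the 95% interval of the change after etoposide for DDIT3, -1.29 to -0.08, lay below 0. ATF4 was -1.47 ± 0.11 in quiescence, -1.09 ± 0.11 after IR and -1.69 ± 0.11 after etoposide. With edgeR 0 of 7 members passed in efficiency in quiescence (0.00854% of all genes passed), after IR (0.0512%), after etoposide (0.0683%) and in the senescent mean against quiescence (0.0427%), and DESeq2 called no member there either. At an unadjusted p under 0.05 there were 405, 782, 450 and 565 genes in these 4 comparisons. They included ATF4 after IR (0.49 ± 0.16), DDIT3 after etoposide, and DDIT3 (-0.56 ± 0.23) and IBTK (-0.42 ± 0.14) in senescent against quiescent cells. If no gene changed, a share of 0.05 of the 11715 genes tested would be expected under this threshold. These members are therefore not calls. The ATF4 interval after IR ran from 0.15 to 0.83, and efficiency after IR was not tested against that under Tg.

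**Figure D4:**
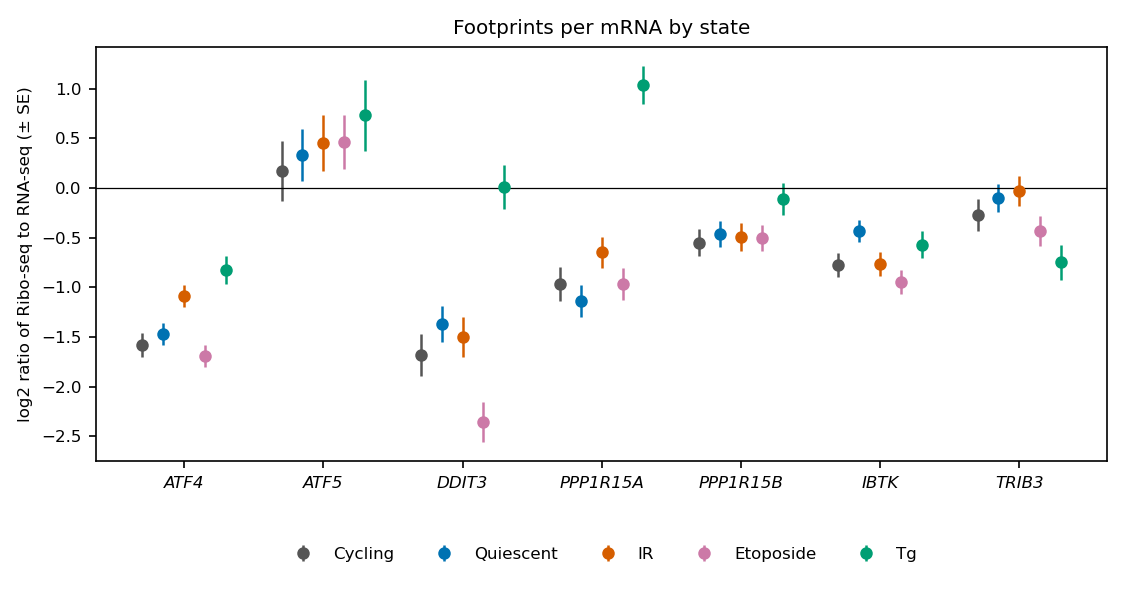
Log2 ratio of Ribo-seq to RNA-seq level by state for the 7 members tested in both assays, with bars for 1 SE. ATF4, ATF5, DDIT3, PPP1R15A and PPP1R15B have their highest point under Tg, where the changes of ATF5 and PPP1R15B did not pass. DDIT3 has its lowest point after etoposide (-2.36).

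Other genes of the pathway give the setting under Tg. Their lists were written with earlier results of these data known and were not trimmed by their values. The genes named from them were picked by their changes under Tg. Of 12 genes for eIF2 kinases, eIF2 and eIF2B, 1 rose and 2 fell in RNA-seq, beside 24.5% of all genes passing in either direction. EIF2AK3, which encodes PERK, rose by 1.08 ± 0.26 (edgeR adjusted p = 0.00882). In efficiency 4 were higher and 1 lower, beside 20.7% of all genes, with the 3 eIF2 subunit genes EIF2S1 (0.54), EIF2S2 (0.92) and EIF2S3 (0.62) among the higher and EIF2AK4, which encodes GCN2, the lower one (-0.74). Of 32 tested targets of ATF4 and CHOP, 9 rose and 3 fell in RNA-seq, and 12 rose and 6 fell in Ribo-seq. Their medians were 0.13 and 0.22 beside -0.03 and -0.08 for all genes, of which 24.5% passed in RNA-seq and 44.6% in Ribo-seq. HERPUD1, a factor of ER-associated degradation, rose 3.54 ± 0.16 in RNA-seq and CHAC1, which degrades glutathione, 2.76 ± 0.18 (edgeR adjusted p = 6.29e-08 and 4.49e-07), at efficiency changes of -0.11 and -0.33 that did not pass. SARS1, a tRNA synthetase, and PSAT1, of serine synthesis, had the reverse: mRNA changes of 0.05 and -0.30 that did not pass and efficiency higher by 1.69 ± 0.14 and 1.77 ± 0.30 (edgeR adjusted p = 1.37e-08 and 0.000243). In efficiency 6 targets were higher and 3 lower, BBC3 (-2.26 ± 0.72), JDP2 (-1.88 ± 0.51) and ERO1A (-1.11 ± 0.40). Under Tg the footprints of BBC3 averaged 1.84 CPM (SD 2.60) and those of JDP2 10.0 CPM (SD 12.6), so the 2 libraries disagreed at low levels. The Ribo-seq changes of JDP2 and ERO1A did not pass (edgeR adjusted p = 0.185 and 0.0691).

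Among bZIP partners and regulators 6 of 13 rose and none fell in RNA-seq, where 24.5% of all genes passed and 11.7% rose. In Ribo-seq 6 of 12 rose and 3 fell, where 44.6% of all genes passed. In RNA-seq ATF3, itself a stress-induced repressor, rose by 3.16 ± 0.16 and CEBPB by 1.38 ± 0.14 (edgeR adjusted p = 9.65e-08 and 1.72e-05). Neither had a passing efficiency change. XBP1, of the unfolded protein response, was higher in efficiency by 1.84 ± 0.29 and CREBRF by 0.95 ± 0.27, whereas CEBPG (-0.74) and ATF2 (-0.71) were lower. Of 11 other mRNAs described with uORFs, 1 rose and none fell in RNA-seq, beside 11.7% of all genes rising. It was the arginine transporter SLC7A1 (1.25 ± 0.26, edgeR adjusted p = 0.00398). In Ribo-seq 5 of 10 rose and 1 fell, where 44.6% of all genes passed. In efficiency 2 of 10 passed, beside 20.7% of all genes, EPRS1 higher (0.48 ± 0.15, edgeR adjusted p = 0.0275) and BACE1 lower (-1.25 ± 0.34, edgeR adjusted p = 0.0128).

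The targets of ATF4 and CHOP also differed between the 2 kinds of senescence, more of them higher than lower after IR. Between IR and etoposide 16 of 32 targets were higher and 7 lower in RNA-seq, and again 16 and 7 in Ribo-seq, with medians of 0.49 and 0.48 beside 0.06 for all genes, of which 22.6% passed in RNA-seq and 22.5% in Ribo-seq. PSAT1 was higher after IR by 1.01 ± 0.21 in RNA-seq and by 1.07 ± 0.12 in Ribo-seq (edgeR adjusted p = 0.00364 and 0.000161). ERO1A, an oxidase of the endoplasmic reticulum, was lower after IR, at -0.82 ± 0.20 in RNA-seq and -1.54 ± 0.29 in Ribo-seq (edgeR adjusted p = 0.00900 and 0.00223). EIF2AK3 was lower after IR, at -1.18 ± 0.22 in RNA-seq and -1.43 ± 0.35 in Ribo-seq (edgeR adjusted p = 0.00179 and 0.00943).

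The genes most like each member over the 14 Ribo-seq libraries, by Pearson's r of log2 CPM among 11715 genes, are given as a description. All points share libraries, and the Tg pair stands apart in depth and in these genes. They were SERTAD2 (r = 0.971) and UAP1L1 (0.966) for ATF4, HINT1 (0.980) and RP2 (0.980) for DDIT3, and TFPT (0.982) and RGS3 (0.980) for PPP1R15A. SDF2L1 (0.947) and AMIGO2 (0.946) were closest to PPP1R15B, HSF2 (0.975) and SKIL (0.971) to IBTK, AARS1 (0.955) and LSS (0.948) to TRIB3, and MAFF (0.906) and FAU (0.893) to ATF5. Over the 13 RNA-seq libraries r was 0.955 for RGS3 with PPP1R15A and -0.296 for TFPT, so likeness in footprints did not always extend to mRNA.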

How the data were processed

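Per the submitters' processing notes, reads were processed with bcl2fastq, STAR 2.7.10b and DESeq2 1.36.0 on hg38. The authors deposited raw counts per gene for each of 27 libraries, in 3 columns for both strands together and each strand alone. How reads were trimmed, and how ribosomal RNA reads were treated, is not given in the sources used here. Per the labels, the RNase I digestion lasted a different time in the design text and in the protocol. A characteristic marks all Tg libraries as footprints, so the assay was taken from each title.

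From these counts the strand column of the kit was taken (the other strand held 3.56 to 10.7% of both), for 60534 gene IDs present in both lists of 62703 and 60664 IDs, the latter used by 12 Ribo-seq libraries. Symbols were matched for 60461 and a gene type for 40647 of them, 19310 protein coding. edgeR 4.0.16 in R 4.3.3 fitted all 5 states together (TMM, filterByExpr, robust quasi-likelihood F test), on 13293 genes in RNA-seq, 11766 in Ribo-seq and 11715 in the joint fit whose interaction of assay and state is translational efficiency. P-values were adjusted by Benjamini-Hochberg over all genes tested, with 0.05 as the threshold. Intervals cover 95%. Alternatives were RLE scaling, DESeq2 1.42.0, no low-count filter, all gene types, both strands, a replicate block, only the states compared, TMM within each assay, and leaving out each library. The fits were tested on simulated data with known changes in the Tg libraries. The efficiency test recovered 26.0% of genes set to a fold of 2 and 18.0% of those set to 0.5. For folds of 4 and 0.25 it recovered 96.0% and 62.0%. At folds of 2 and 0.5, RNA-seq recovered 70.0% and 62.0%, and Ribo-seq 60.0% and 56.0%. Members, pathway lists and tests were chosen with earlier results of these data known. Named pathway genes are at most the 3 highest and 3 lowest in efficiency and the 3 largest in RNA-seq under Tg among those passing, per list. Likeness names the 2 highest correlations. Of the motifs, the ER stress element and TGACGTCA were added after the promoter sequences were seen. The labels do not say what replicate numbers mark, and no block was fitted in the main tests. By deviations from group means, all same-numbered pairs correlated above 0.1 for quiescent and cycling Ribo-seq (0.164 to 0.275) and between the assays in cycling and etoposide cells (0.134 to 0.382). The same held in RNA-seq for Tg with cycling (0.281) and Tg with etoposide (0.643 and 0.176). In the check for repeated libraries no pair of replicates agreed within counting noise.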

Additional observations from a re-analysis of the deposited data

Results flagged for a closer look

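The change against cycling cells differed between the 2 kinds of senescence for 3 genes, each tested directly as IR against etoposide with edgeR. In RNA-seq the difference was 0.39 for ATF4, 0.42 for DDIT3 and 1.11 for TRIB3, and in Ribo-seq it was 0.85 for ATF4, 1.14 for DDIT3 and 1.36 for TRIB3, all higher after IR. For ATF4 and TRIB3 the footprint changes against cycling cells had opposite signs, 0.51 and 1.00 after IR and -0.34 and -0.37 after etoposide, the last of which did not pass. The groups hold 2 or 3 libraries and were not screened for single outlying libraries.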

How the results depend on the processing

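Depth limits the footprint side most, with 1936976 to 6980115 gene counts in the IR, etoposide and Tg Ribo-seq libraries. Under Tg the 3 efficiency calls held in every alternative but 1, ATF4 with only the states compared (0.72, adjusted p = 0.0614), and in each fit without 1 library. With only the states compared, the number of members called became 1 in RNA-seq for senescent against quiescent cells, 1 in Ribo-seq for quiescent cells and 1 in efficiency for IR against etoposide. With RLE scaling it became 2 in Ribo-seq after etoposide. Under Tg the IBTK mRNA call was lost with only the states compared (0.48, edgeR adjusted p = 0.151). Leaving out Tg replicate 1 lowered the mRNA change to 0.22 for IBTK and 0.74 for IFRD1. Leaving out 1 library at a time gave 1 to 2 members in RNA-seq for quiescent cells, 2 to 4 after IR, 1 to 2 for senescent against quiescent cells and 1 to 3 for IR against etoposide. In Ribo-seq it gave 1 to 3 for quiescent cells, 0 to 3 after etoposide and 0 to 2 for senescent against quiescent cells. Signs reversed only for changes that did not pass: leaving out 1 library moved IBTK mRNA between -0.10 and 0.03 in quiescence and between -0.01 and 0.05 after IR, IFRD1 mRNA between -0.14 and 0.12 after etoposide, ATF5 mRNA between -0.31 and 0.63 under Tg, and PPP1R15A footprints between -0.15 and 0.22 in quiescence.

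Over all genes, fitting only the states compared changed the number called from 2068 to 852 in RNA-seq for quiescent cells, from 3259 to 1512 in RNA-seq under Tg, from 3986 to 6020 in Ribo-seq after etoposide, from 2653 to 4134 in Ribo-seq for IR against etoposide, from 2430 to 1053 in efficiency under Tg, from 6 to 756 in efficiency after IR and from 8 to 28 after etoposide. Without cycling RNA-seq replicate 1 or 2 the Tg RNA-seq count fell as low as 1593 and the quiescent one to 707. The cause was not tested. DESeq2 called 6, 32, 40 and 38 genes in efficiency where edgeR called 1, 6, 8 and 5 (quiescent, IR, etoposide, senescent against quiescent). Without a low-count filter PPP1R15A footprints missed the threshold after IR (0.54) and etoposide (0.53) and against quiescence (0.48).

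In most sets same-numbered libraries did not all deviate together: correlations of their deviations exceeded 0.1 in 7 of 26 Ribo-seq pairs, 10 of 23 RNA-seq pairs and 6 of 13 pairs across assays. They exceeded it in all 3 Ribo-seq pairs of quiescent and cycling cells, and across assays in all 3 etoposide pairs and both cycling pairs. In RNA-seq they exceeded it in both pairs of cycling with Tg (0.281 each) and both of etoposide with Tg (0.643 and 0.176). With 2 libraries in each group, the cycling and Tg pairs give 1 value by construction. With the block no member's call changed in Ribo-seq for quiescent cells, nor in efficiency after etoposide with the block by culture. With the replicate block IBTK mRNA was -0.00 after IR and IFRD1 mRNA -0.05 after etoposide, both reversed, and ATF5 footprints passed after IR (0.77) and under Tg (0.95), as did PPP1R15B efficiency under Tg (0.51, edgeR adjusted p = 0.0488). The number of members called with the block stayed within 1.5 times the number without it in each comparison.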
